A study of Mus musculus with 12 samples.

Results

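The microRNAs described here come from the transcript that runs antisense to Rtl1 in the imprinted Dlk1-Dio3 region of mouse chromosome 12. They were taken by name from the table of all samples, which lists 616 mature microRNAs, and number 9: miR-431-5p, both arms of miR-433, both arms of miR-127, both arms of miR-434 and both arms of miR-136. All 9 are listed and all 9 passed the filter on low values. The 12 small-RNA libraries came from gonads of CD1 mouse embryos without genetic change or treatment. They hold primordial germ cells (PGC), the precursors of eggs and sperm, or gonadal somatic cells (SC), each from female and male embryos on embryonic days 11.5, 12.5 and 13.5 (E11.5, E12.5, E13.5). Each combination has 1 library. Every library is a pool, drawn from groups of about 80 gonads that were split by magnetic beads carrying anti-CD15, and the submitters' staining put the enrichment of PGC at 93 to 96% and the purity of SC at over 90%.

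Dlk1-Dio3 is an imprinted domain. The paternal chromosome expresses the protein-coding genes Dlk1, Rtl1 and Dio3, and the maternal chromosome expresses the long noncoding RNAs Meg3, the Rtl1 antisense transcript, Rian and Mirg. Rtl1 descends from a retrotransposon and is needed in the mouse placenta and fetus. Because the antisense transcript lies opposite the coding sequence of Rtl1, its microRNAs pair perfectly with Rtl1 mRNA and can direct its cleavage, in addition to binding other mRNAs through the seed at their 5′ end. Primordial germ cells are the cells in which parental imprints are erased before new ones are laid down according to sex.

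All 9 mature sequences were found in RefSeq (GRCm38.p6, the build named in the submitters' processing notes). They are shown because the seed, bases 2 to 8 and here in capitals, decides which mRNAs other than Rtl1 a microRNA can bind, and because both arms of 4 hairpins are present. In genomic order along the plus strand they read, 5′ to 3′, as follows.
miR-431-5p: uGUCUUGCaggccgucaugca
miR-433-5p: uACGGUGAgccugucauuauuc
miR-433-3p: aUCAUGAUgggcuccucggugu
miR-127-5p: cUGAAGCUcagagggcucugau
miR-127-3p: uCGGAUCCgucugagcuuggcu
miR-434-5p: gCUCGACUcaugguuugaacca
miR-434-3p: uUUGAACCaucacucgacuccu
miR-136-5p: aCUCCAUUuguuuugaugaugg
miR-136-3p: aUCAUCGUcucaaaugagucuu
The 9 seeds are all different, and none is shared with another mature microRNA of the RefSeq table, so the members form no seed family. The 5 hairpins lie within 4942 bases, chr12:109590447-109595388 on the plus strand, inside the span that RefSeq gives to Rtl1 (chr12:109564900-109604418). The mature miR-431-5p is at chr12:109590459-109590479, miR-433-3p at chr12:109591781-109591802 and miR-127-3p at chr12:109592888-109592909. Further along are miR-434-5p at chr12:109594528-109594549, miR-434-3p at chr12:109594565-109594586 and miR-136-3p at chr12:109595366-109595387. The exact reverse complement of all 9 was found in Rtl1 transcripts of GENCODE vM39, each time within the coding sequence of Rtl1, which is on the minus strand. Both arms of miR-136 also match the hairpin of Mir3071, which RefSeq places on the opposite strand over Mir136. The 2 arms of miR-434 share a run of 9 bases, UUUGAACCA, which ends the 5p arm and begins the 3p arm with the seed of miR-434-3p inside it.

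Levels are given as reads per 1000000 microRNA reads (RPM), taken from the deposited normalized values. MicroRNA reads per library ran from 166804 to 1768825 and were fewest in the 2 E12.5 PGC libraries. A listed 0 means under 5 reads, which is 2.83 RPM in the deepest library and 29.98 RPM in the shallowest, and 8 of the members' 108 values are 0. The fractions were checked against microRNAs of known cell types. The miR-290 cluster, 14 mature microRNAs of early germ and pluripotent cells, summed to 71284 RPM in PGC male E11.5 and to between 97754 and 143010 RPM in PGC at E12.5 and E13.5, against 244 to 6036 RPM in SC. In PGC female E11.5 it summed to 2348 RPM, within the range of SC, so this library goes against its label. The 10 mature microRNAs of the mesenchyme list (miR-199a, miR-199b, miR-214, miR-143 and miR-145a) summed to 66336 to 97255 RPM in PGC at E11.5, to 12249 to 22553 RPM at E12.5 and to 9726 to 31513 RPM at E13.5, with 82358 to 130880 RPM in SC. Endothelial miR-126a followed them, with 27782 to 51442 RPM in PGC at E11.5 and 4670 to 11230 RPM on the later days, against 16088 to 37105 RPM in SC. The erythroid list (5 microRNAs) summed to 774 to 1670 RPM in PGC at E11.5 and 89.2 to 186 RPM at E13.5, the muscle list (4) to 913 to 1229 RPM and 0 to 55.8 RPM, and liver miR-122 (both arms) to 2015 to 4287 RPM and 0 in both libraries. Those 5 lists were thus lower on the later days than at E11.5 in PGC, as the members' sum was. Lists that ran the other way in PGC were miR-202 of gonadal somatic cells, with 155 to 264 RPM at E11.5 and 1063 to 3054 RPM at E13.5, and the neural list (6), with 2265 to 2962 RPM and 4946 to 5767 RPM. The part of these cell types in the results was not tested. In such pooled fractions, fewer cells of a type and less RNA per cell cannot be told apart.

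Together the 9 microRNAs took 0.460 to 2.23% of the microRNA reads in PGC libraries, with a mean of 1.19% ± 0.69, and 1.72 to 3.95% in SC libraries, with a mean of 2.30% ± 0.87 (SD, n = 6 each, over days and sexes). In PGC their sum was 22329, 14226 and 7923 RPM on E11.5, E12.5 and E13.5 in females and 16468, 6032 and 4599 RPM in males. In SC it was 25795, 20720 and 17223 RPM in females and 39476, 17586 and 17438 RPM in males. The sum was lower in PGC than in SC of the same day and sex in all 6 pairs, and the gap was narrowest in females at E11.5, where PGC held 86.6% of the SC level; that PGC library is the one with few miR-290 cluster reads. By E13.5 PGC held 46.0% of the SC level in females and 26.4% in males. The highest library was SC male E11.5 and the 3 lowest were PGC male E12.5, PGC female E13.5 and PGC male E13.5. SC male E12.5, SC male E13.5 and SC female E13.5 could not be ordered beyond counting error; the other neighbours in the order were separated by more than their 95% intervals, which cover counting error only.

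**Figure D1:**
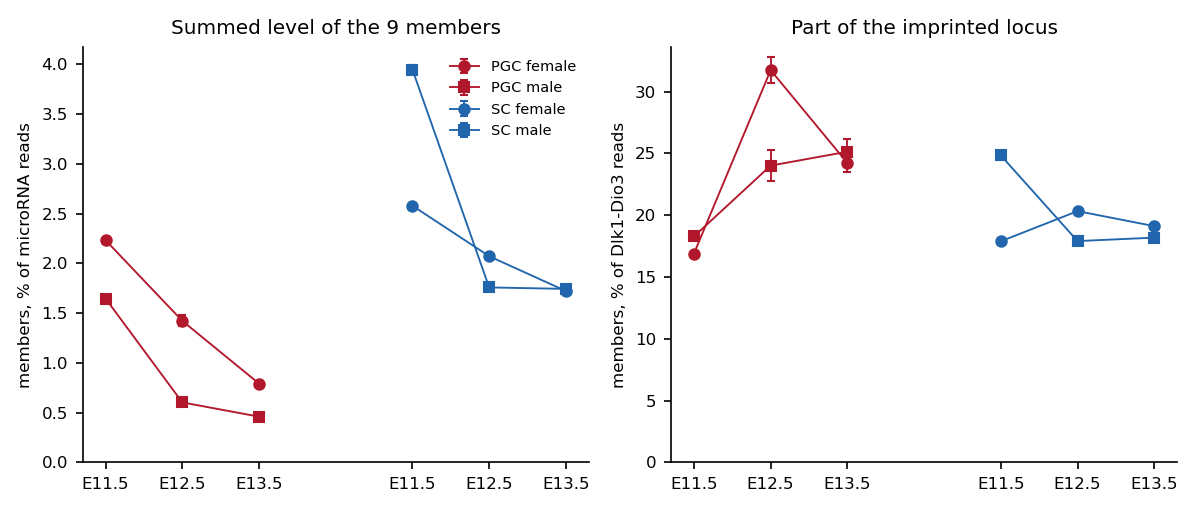
Left, reads of the 9 members as a percentage of all microRNA reads in each library; right, the same reads as a percentage of all reads from Dlk1-Dio3 microRNAs (bars, exact 95% interval for counting error; circles, female; squares, male; red, PGC; blue, SC). The members' share of all reads was lower on each later day in PGC of both sexes, down to 0.792% in females and 0.460% in males, while their share of the locus in PGC was highest at 31.7% in PGC female E12.5.

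Within the locus the members kept a sizeable share throughout. They took 16.9 to 31.7% of the reads from Dlk1-Dio3 microRNAs in PGC and 17.9 to 24.8% in SC, and these ranges overlapped. The whole locus itself took 1.83 to 13.2% of microRNA reads in PGC and 9.01 to 15.9% in SC. In PGC the locus as a whole took 3.27 and 1.83% at E13.5 in females and males, against 13.2 and 9.01% at E11.5. The members' share of it was 24.2 and 25.1% at E13.5 against 16.9 and 18.3% at E11.5, so on these counts the rest of the locus was lower by more than the members were.

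The 4 members miR-127-3p, miR-434-5p, miR-434-3p and miR-433-3p carried most of the reads. miR-127-3p, from a hairpin that the mouse placenta needs for normal development, was the most abundant by median in SC and made up 19.4 to 28.8% of the members' reads in PGC and 24.2 to 39.0% in SC. It had 6307, 4101 and 1941 RPM in female PGC on E11.5, E12.5 and E13.5 and 3193, 1716 and 1053 RPM in male PGC. In SC it had 6777, 8083 and 5251 RPM in females and 9571, 4510 and 6195 RPM in males. PGC were below SC in every pair, at 93.1% of the SC level in females and 33.4% in males at E11.5, and at 37.0% in females at E13.5, although the ranges of the cell types overlapped. miR-127-3p fell by 1.34 on the log2 scale in PGC relative to SC (SE 0.33, limma adjusted p = 0.0078).

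miR-434-5p showed the same direction with a different course over the days. Female PGC had 4842, 486 and 1657 RPM on E11.5, E12.5 and E13.5, and male PGC had 4145, 657 and 1216 RPM. SC had 7811, 2425 and 4447 RPM in females and 6693, 3484 and 4525 RPM in males. The lowest day was E12.5 in both sexes and both cell types, and PGC lay below SC in all 6 pairs. Its level in PGC relative to SC fell by 1.56 on the log2 scale (SE 0.33, limma adjusted p = 0.0037).

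miR-434-3p, from the other arm of the same hairpin, did not have that dip. It had 4581, 3549 and 1776 RPM in female PGC, 3308, 1423 and 864 RPM in male PGC, 3555, 4286 and 3440 RPM in female SC and 9664, 4035 and 2023 RPM in male SC, in the order of the days. PGC were lower than SC in 5 of 6 pairs and higher in females at E11.5. The change was smaller than that of the 5p arm and close to the threshold, at -0.85 on the log2 scale (SE 0.32, limma adjusted p = 0.0495). That call for miR-434-3p ended under quantile normalization (adjusted p = 0.077), voom (0.073), a pseudocount of 50 RPM (0.054), no filter (0.054) and a filter at 50 RPM (0.0502), all by limma, and the adjusted p ran from 0.0107 to 0.176 with 1 library left out.

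miR-433-3p was the member with the weakest separation of the cell types. It had 4467, 5563 and 1762 RPM in female PGC, 3708, 1884 and 1104 RPM in male PGC, 3677, 4348 and 2095 RPM in female SC and 10168, 3856 and 2968 RPM in male SC. Female PGC were above female SC at E11.5 and E12.5, and male PGC were below male SC on all 3 days. Its PGC minus SC difference did not pass the threshold, at -0.59 on the log2 scale (SE 0.33, limma adjusted p = 0.168).

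The single-arm member miR-431-5p, which in mouse muscle acts on the mRNA of the stem-cell factor Pax7, was lower on each later day in all 4 series of a cell type and sex. It had 1531, 492 and 346 RPM in female PGC and 1130, 353 and 237 RPM in male PGC, against 1573, 1227 and 1165 RPM in female SC and 1976, 1319 and 815 RPM in male SC. At E11.5 female PGC and SC were nearly level, and on the later days PGC were well below SC in both sexes. Its level in PGC relative to SC fell by 1.25 on the log2 scale (SE 0.34, limma adjusted p = 0.013). The table also lists miR-431-3p, the other arm, which was not among the 9 and ran from 0 to 37.0 RPM in PGC and from 14.4 to 43.7 RPM in SC.

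**Figure D2:**
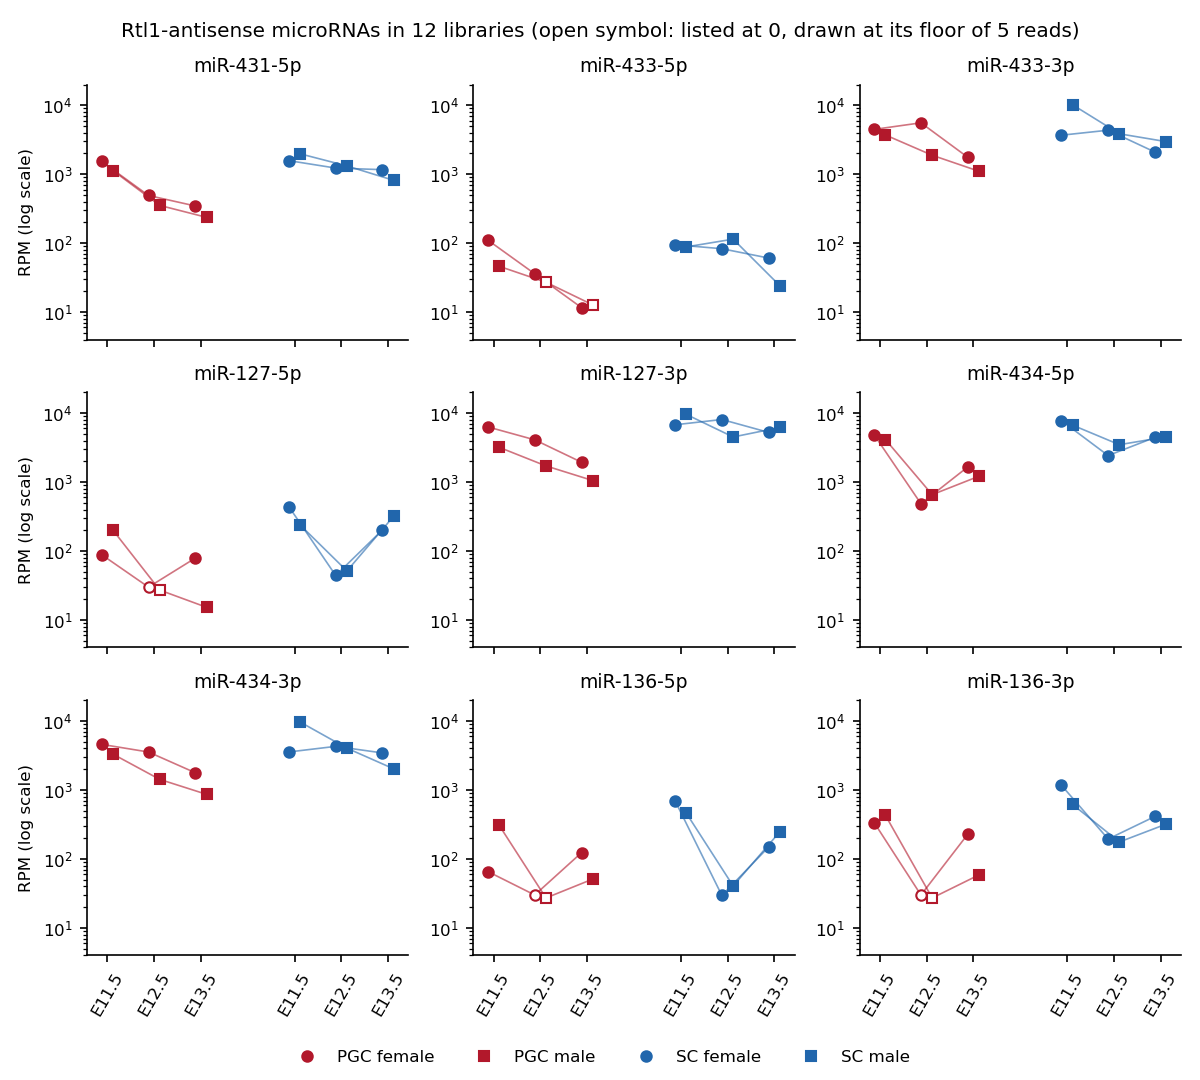
RPM of each member in the 12 libraries on a log axis, PGC in red left of SC in blue, with circles for female and squares for male and a line joining the 3 days of a cell type and sex; open symbols are listed at 0 and drawn at the floor of 5 reads of their library. miR-431-5p was lower on each later day in all 4 series, whereas miR-434-5p and both arms of miR-136 were lowest at E12.5 in all 4.

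The 4 scarce members are the minor arms and miR-136. miR-136-3p had 337 and 430 RPM in female and male PGC at E11.5, was listed at 0 in both at E12.5 and had 228 and 58.6 RPM at E13.5. In SC it had 1173, 194 and 413 RPM in females and 617, 176 and 320 RPM in males. miR-136-5p had 65.5, 0 and 123 RPM in female PGC and 307, 0 and 51.0 RPM in male PGC, against 695, 29.5 and 149 RPM in female SC and 460, 40.6 and 248 RPM in male SC. Both arms were thus lowest at E12.5 in both cell types, and the SC libraries of that day were among the deeper ones, with 1492596 and 1380552 reads.

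miR-127-5p had 88.4, 0 and 79.0 RPM in female PGC and 201, 0 and 15.3 RPM in male PGC, against 440, 44.2 and 203 RPM in female SC and 239, 51.4 and 321 RPM in male SC. In male PGC the E13.5 value is under the E12.5 floor of 27.1 RPM, so the lowest day cannot be told in that series. miR-433-5p had 111, 36.0 and 11.6 RPM in female PGC and 46.2, 0 and 0 RPM in male PGC, against 94.98, 83.1 and 60.8 RPM in female SC and 88.4, 114 and 24.1 RPM in male SC. Each of these 4 members fell in PGC relative to SC by the limma test. miR-136-3p fell by 2.32 on the log2 scale (SE 0.54, adjusted p = 0.0063 by limma) and miR-127-5p fell by 2.08 (SE 0.47, adjusted p = 0.0054 by limma). miR-136-5p fell by 1.74 (SE 0.45, adjusted p = 0.0105 by limma) and miR-433-5p fell by 1.46 (SE 0.48, adjusted p = 0.030 by limma). The call for miR-433-5p ended with voom (limma adjusted p = 0.127) and without any 1 of the 8 libraries of E12.5 and E13.5 (0.055 to 0.119). Leaving out either library of a pair takes that pair out of the comparison, so the 2 give the same estimate and are not separate checks. Since each of the 4 members has 2 PGC libraries at 0, their fitted sizes depend on the 10 RPM added before taking logs.

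In total 8 of the 9 members were called lower in PGC than in SC and 0 higher, where 25.8% of the 473 microRNAs tested were called lower. Their median change was -1.46 on the log2 scale, against -0.47 over all microRNAs tested. PGC were below SC in 6 of 6 pairs for 6 members (miR-127-3p, miR-127-5p, both arms of miR-136, miR-431-5p and miR-434-5p), where 15.9% of all tested microRNAs were; in every member the PGC and SC ranges over days and sexes overlapped. Without PGC female E11.5, the library that goes against its label, 8 members were called, and without all E11.5 libraries 8. Of all 473 microRNAs, 150 and 156 were called lower in those fits. Without the E13.5 libraries, or without the 2 E12.5 PGC libraries, 0 members were called although all 9 stayed negative. Their median was -1.32 and -1.17, with 6 unadjusted limma p-values under 0.05 each time. Of all 473 microRNAs, 0 and 1 were called lower in those fits, at a median of -0.42 and -0.21. Unadjusted limma p-values under 0.05 numbered 126 and 147 among them. Without male PGC E12.5, male SC E12.5 or female SC E13.5, 5 were called, where 58, 54 and 74 of all 473 were called lower. The 2 male E12.5 fits drop the same pair and are not separate checks. Without the pairing by day and sex 1 was called, where 36 of all 473 were called lower.

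Between E11.5 and E13.5 in PGC, 6 of the 9 members were called lower and 0 higher, where 23.9% of all tested microRNAs were called lower, and the members' median change was -1.64 on the log2 scale against -0.22 over all. miR-431-5p fell by 2.16 on the log2 scale (SE 0.35, adjusted p = 0.0023 by limma) and miR-433-5p fell by 2.48 (SE 0.52, adjusted p = 0.0067 by limma). miR-434-5p fell by 1.65 (SE 0.34, adjusted p = 0.0066 by limma) and miR-127-3p fell by 1.64 (SE 0.37, adjusted p = 0.0093 by limma). miR-434-3p fell by 1.64 (SE 0.50, adjusted p = 0.036 by limma) and miR-433-3p fell by 1.54 (SE 0.46, adjusted p = 0.032 by limma). In level, E13.5 PGC held 30.8% of the E11.5 amount of miR-127-3p in females and 33.0% in males, and 22.6 and 21.0% for miR-431-5p. The female E11.5 library of this comparison is the one that goes against its label. Its miR-290 cluster sum was 2348 RPM, against 97754 RPM in female PGC at E13.5. The female values may therefore not be a change within PGC. In male PGC the miR-290 cluster summed to 71284 RPM at E11.5 and 119350 RPM at E13.5. The mesenchyme list summed to 66336 and 9726 RPM in these male libraries, and endothelial miR-126a to 27782 and 6751 RPM. The other way went miR-202, with 155 and 1063 RPM, and the neural list, with 2962 and 5767 RPM. The part of other cell types in the male values was not tested.

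The 3 members that missed the threshold in that comparison are miR-127-5p and both arms of miR-136, which had values of 0 in PGC at E12.5. miR-136-3p had a change of -1.61 (SE 0.56, limma adjusted p = 0.059), miR-127-5p of -1.60 (SE 0.70, limma adjusted p = 0.117) and miR-136-5p of -0.78 (SE 0.73, limma adjusted p = 0.466). The sexes disagreed for miR-136-5p, which was higher at E13.5 than at E11.5 in female PGC and lower in male PGC. Only 2 libraries stand at each end of this comparison, so leaving 1 out leaves 1 there. Fewer members, and fewer of all tested microRNAs, were then called lower than with all libraries. The members' median change was -2.10 without female E11.5 PGC and -1.29 without male E11.5 PGC, against -0.15 and -0.29 over all tested. It was -1.92 without female E13.5 PGC and -1.57 without male E13.5 PGC, against -0.32 and -0.19. The change of miR-431-5p stayed between -2.20 and -2.12 in those 4 fits.

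In SC, the same comparison of E13.5 with E11.5 called 0 of the 9 members by limma, where 9.73% of all tested microRNAs were called in either direction. All 9 values were negative, from -1.50 for miR-136-5p to -0.34 for miR-127-5p on the log2 scale, with 2 unadjusted p-values under 0.05. limma's voom model on reads also called 0, with 5 unadjusted p-values under 0.05. That number was 6 with a pseudocount of 50 RPM and 0 on the deposited scale, again with 0 calls. Among all 473 microRNAs, 137 had an unadjusted p under 0.05 in the main limma fit and 146 with voom. With a pseudocount of 50 RPM 146 did, and 84 on the deposited scale. The difference between the stage changes, PGC minus SC, was called for 0 of 9 members by limma, where 3.59% of all tested microRNAs were called. By voom it was called for 0 members and for 0 of all 473 microRNAs. In the main limma fit the difference was negative for 8 members. There 1 member had an unadjusted p under 0.05, as did 102 of all 473 microRNAs. The difference was -1.31 for miR-431-5p (SE 0.49, limma adjusted p = 0.170) and -1.15 for miR-127-3p (SE 0.52, limma adjusted p = 0.237). A decline of these microRNAs over the days is therefore not shown to differ between PGC and SC.

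**Figure D3:**
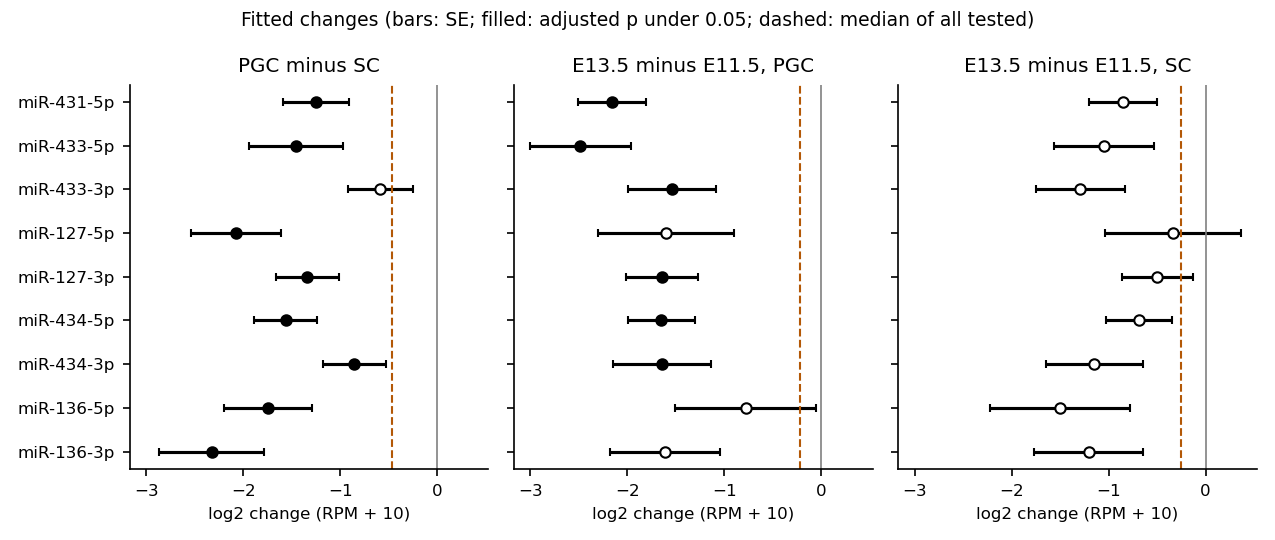
Fitted log2 change of each member with its SE for PGC minus SC, for E13.5 minus E11.5 in PGC and for E13.5 minus E11.5 in SC; filled points have an adjusted p under 0.05 and the dashed line is the median of all 473 microRNAs tested. The filled points number 8, 6 and 0 from left to right, and all points lie left of 0.

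The day of the lowest value split the members by microRNA. E12.5 was the lowest of the 3 days in 4 of 4 series for miR-434-5p, miR-136-5p and miR-136-3p, taking a listed 0 as 4 reads, where 9.94% of all tested microRNAs had that pattern, and in 3 of 4 for miR-127-5p. It was the lowest in 1 of 4 series for miR-127-3p and in 0 of 4 for miR-431-5p, miR-434-3p and both arms of miR-433. The members' correlations across the 12 libraries followed this split only in part, as a description only, since the libraries share cell type and day. miR-431-5p crossed it, with Pearson's r of 0.825 with miR-434-5p against 0.744 with miR-433-3p. Pearson's r over 36 pairs of members ran from 0.196 to 0.957 with a median of 0.698. It was highest for miR-136-3p with miR-434-5p, at 0.957, and lowest for miR-136-5p with miR-433-3p, at 0.196.

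Arm use can be compared without scaling a library, because both arms come from 1 hairpin. miR-431 was almost all 5p, at 96.4 to 100% of the reads of both arms, and miR-433 almost all 3p, with 0 to 2.88% from 5p. miR-127 was also mostly 3p, with a 5p share between 0 and 6.09%. Only miR-434 and miR-136 gave both arms in quantity.

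For miR-434 the 5p share was 51.4, 12.0 and 48.3% in female PGC on E11.5, E12.5 and E13.5 and 55.6, 31.6 and 58.5% in male PGC. In SC it was 68.7, 36.1 and 56.4% in females and 40.9, 46.3 and 69.1% in males. E12.5 was the lowest day in 3 of these 4 series, the exception being male SC, and the 95% interval in female PGC at E12.5, 9.67 to 14.7%, lay far below those of the other days. For miR-136 the 5p share in SC was 37.2, 13.2 and 26.6% in females and 42.7, 18.7 and 43.7% in males, and the E12.5 PGC libraries held under 5 reads of each arm. For miR-127 the 5p share was lowest at E12.5 in 4 of 4 series, at 0.544 and 1.13% in female and male SC and listed at 0 in PGC. Up to 4 unlisted reads would allow a share of 0.581% in female PGC and 1.25% in male PGC, where the E13.5 share was 1.43% with an interval that overlaps.

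Between cell types no arm share passed its test, and the test had little room to show a difference. The 5p share of miR-434 was 42.9% ± 17.8 in PGC and 52.9% ± 14.1 in SC (SD, n = 6 each), a difference of -10.0 percentage points that was negative in 5 of 6 pairs (exact two-sided sign-flip permutation test, adjusted p = 0.260 over 5 hairpins). None of the 5 hairpins passed, and the smallest unadjusted p of that exact test was 0.09375, for miR-433. The other adjusted p-values, from the same exact permutation test, were 0.260 for miR-431 and for miR-433, 0.430 for miR-127 and 0.875 for miR-136. As listed, the 5p share of PGC was above that of SC for miR-431 and below it for miR-433 in 5 of 6 pairs each. The 3p arm of miR-431 was listed at 0 in female PGC at E12.5 and in male PGC at E12.5 and E13.5. Up to 4 unlisted reads would allow 5p shares of 95.3, 94.2 and 95.9% there, below the 98.2, 98.2 and 98.3% of SC. For miR-433, male PGC at E13.5 could likewise hold 0.915%, above the 0.805% of SC. Those pairs cannot be ordered. The smallest p the exact permutation test allows is 0.03125 with 6 pairs and 0.125 with the 4 pairs of miR-136, and adjusted over 5 hairpins 0.03125 becomes 0.156 where 1 hairpin reaches it and 0.052 where 3 do. No hairpin could therefore pass alone, and the results do not show that PGC and SC use the arms alike.

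**Figure D4:**
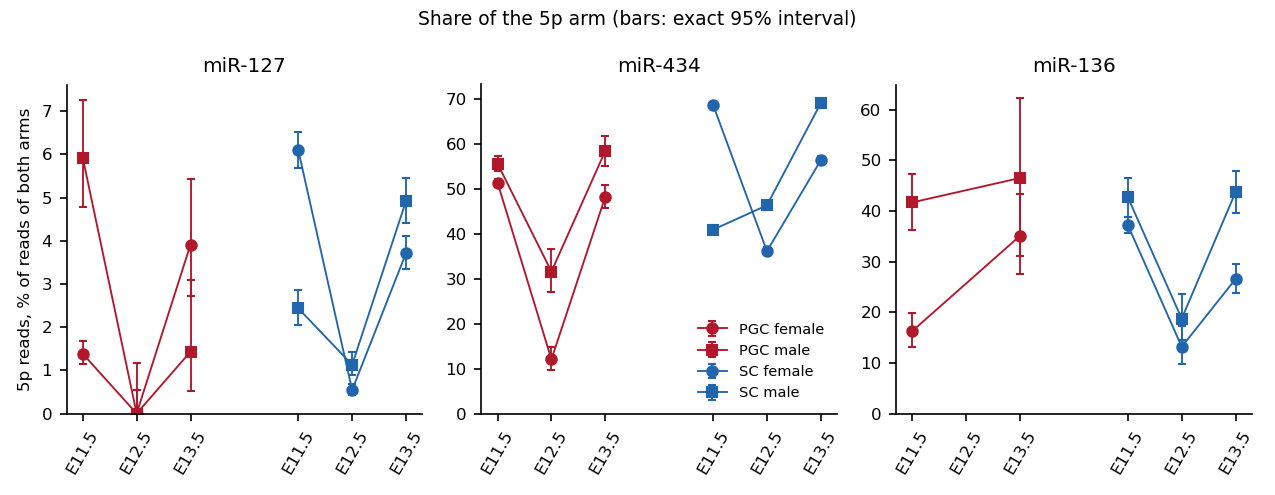
Reads from the 5p arm as a percentage of the reads of both arms for miR-127, miR-434 and miR-136, by library (bars, exact 95% interval for counting error; circles, female; squares, male; PGC in red left of SC in blue). The E12.5 share is the lowest of the days for miR-127 in all 4 series, for miR-434 in 3 and for miR-136 in both SC series; miR-136 has no E12.5 point in PGC because both arms are listed at 0.

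Female and male libraries were compared within each cell type over the 3 days. In PGC 4 members were higher in females on all 3 days: miR-127-3p, miR-431-5p, miR-433-3p and miR-434-3p. How many of all tested microRNAs had that pattern was not counted. The female library of E11.5 is the one that goes against its label, so that day may not compare PGC with PGC. miR-433-5p was higher in females at E11.5 and E12.5, but at E13.5 its 5 reads in females (11.6 RPM) and the listed 0 in males, with a floor of 12.7 RPM, cannot be ordered. The female level of miR-127-3p was 1.98, 2.39 and 1.84 times the male level on E11.5, E12.5 and E13.5, and that of miR-434-3p 1.39, 2.50 and 2.06 times. No member was called by limma, where 0% of all tested microRNAs were, and by voom 0 were called. By limma 2 members had an unadjusted p under 0.05, as did 85 of all 473 microRNAs. The change was 1.04 for miR-127-3p and 1.47 for miR-433-5p on the log2 scale, each with a limma adjusted p of 0.216. In SC 0 members were called by limma or voom, with 0 unadjusted p-values under 0.05 and again 0% of all tested microRNAs called, and the values ran from -0.60 to 0.47. Leaving out PGC female E11.5 did not bring a call in either cell type.

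The neighbours of the members in the locus moved in the same directions. Of the microRNAs of the Meg3 and Rian side, 14 of the 15 listed were tested and 14 were called lower in PGC than in SC (median -1.42), and 12 were called lower at E13.5 than at E11.5 in PGC (median -2.24). Of the Mirg side, 52 of 62 listed were tested, 36 were called lower in PGC than in SC (median -1.31) and 44 lower at E13.5 in PGC (median -2.22). Among all tested microRNAs, 25.8% were called lower in PGC than in SC and 23.9% lower at E13.5 than at E11.5 in PGC. The most abundant neighbour, miR-541-5p on the Mirg side, ran from 2203 to 18105 RPM in PGC and from 10318 to 17280 RPM in SC. The difference between the stage changes of PGC and SC was called lower for 3 of the 52 tested on the Mirg side and for 0 of 14 on the Meg3 and Rian side, beside the 3.59% called in either direction among all tested microRNAs. Those calls are not stable: 0 of all 473 microRNAs were called in that comparison with voom, with a pseudocount of 1 RPM or without PGC female E11.5, with 101, 99 and 88 unadjusted p-values under 0.05.

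Outside the 9, the microRNAs whose levels over the 12 libraries were most like the members' sum were miR-145a-5p (Pearson's r 0.972), miR-493-3p (0.967), miR-770-3p (0.965), miR-3099-3p (0.958) and miR-412-5p (0.948). For miR-127-3p alone they were miR-145a-5p (0.961), miR-214-3p (0.952), miR-3099-3p (0.937), miR-337-5p (0.934) and miR-541-5p (0.928). Of the 20 most like the sum, 16 belong to the Dlk1-Dio3 locus, as do 67 of the 464 microRNAs compared. miR-145a-5p and miR-214-3p are on the mesenchyme list, whose sum was also higher in PGC at E11.5 than on the later days. These correlations are descriptions over libraries that differ in cell type and day.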

How the data were processed

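The members and the microRNA lists were chosen with earlier results of these data known. Per the submitters' processing notes, FastQC, Trim Galore, Bowtie 1.1.2 and DESeq were used with GRCm38; the way reads were assigned to microRNAs is not given in the sources used here. What the authors deposited is a normalized signal, counts divided by 1 size factor per library by the authors. Every value was 0 or a whole multiple (tolerance 1e-06) of the smallest value in its library divided by 5, so reads were recovered from them and a 0 was read as under 5 reads. Size factors ran from 0.614 to 1.58. The sums of deposited values differed 20.4-fold between libraries and the reads 10.6-fold, so RPM of the column sum was used.

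limma 3.58.1 (R 4.3.3; empirical Bayes with trend) was fitted to log2(RPM + 10) for the 473 microRNAs with a mean of at least 10 RPM, with Benjamini-Hochberg adjustment over all of them and a threshold of 0.05. PGC and SC were paired by day and sex (5 residual degrees of freedom); stage and sex were tested in 1 fit of all libraries, with day and sex terms within each cell type (4 residual degrees of freedom). Since each combination has 1 library, the p-values reflect the spread among these 12 libraries alone, not that among repeat isolations. Arm shares used hairpins with at least 20 reads over both arms, exact Clopper-Pearson intervals at 95% and sign flips over pairs (scipy 1.17.1); 64 arrangements exist for 6 pairs. Intervals and floors cover counting error only, since reads of PCR products that carry no molecular identifier may come from the same molecule. All members are named, with the 5 microRNAs most correlated with their sum and with miR-127-3p and the most abundant neighbours. The fits were tested on simulated data. Alternatives were the deposited scale, quantile normalization, voom on recovered reads, other pseudocounts and filters, and leaving out libraries.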

Additional observations from a re-analysis of the deposited data

How the results depend on the processing

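For PGC minus SC, 8 members were called lower. That count was 9 on the deposited scale, 7 after quantile normalization, 6 with voom, 8 and 7 with pseudocounts of 1 and 50 RPM, 7 with no filter and 7 with a filter at 50 RPM, and 5 to 8 when each library was left out in turn. It was 0 without the E12.5 PGC libraries, 1 with no pair block and 0 without the E13.5 libraries. The first and the last of these fits have fewer libraries. Over all 473 microRNAs 203 were called in either direction, and 24, 83 and 0 in those 3 fits. Called lower among all 473 were 122, and 365 on the deposited scale, 108 after quantile normalization and 71 with voom. With pseudocounts of 1 and 50 RPM 113 and 110 were, and 54 to 150 with each library left out in turn. With no filter 129 of 616 were, and with a filter at 50 RPM 94 of 347. For E13.5 minus E11.5 in PGC, 6 members were called; the count was 8 on the deposited scale, 6 after quantile normalization, 4 with voom, 5 and 7 with the other pseudocounts and 2 to 6 with 1 library left out. Called lower among all 473 in that stage comparison were 113, and 126 on the deposited scale, 102 after quantile normalization and 86 with voom. With pseudocounts of 1 and 50 RPM 103 and 114 were. When 1 PGC library of E11.5 or E13.5 was left out, fewer of all 473 were called lower too. The stage change of miR-136-5p in PGC was -0.78. It ran from -2.10 to 0.54 with 1 library left out. It turned to 0.54 without the male E11.5 library and to 0.30 without the male E13.5 library. The cause was not tested. The other 4 comparisons by limma gave 0 calls among the members in every setting run; the arm test also gave 0, but its design allows hardly any call, so that says nothing on stability. The deposited scale shifted the median PGC minus SC change of all microRNAs from -0.47 to -2.57, and the count of 9 includes that shift; under every setting run all 9 members stayed negative in that comparison. By replicate number, no paired analysis was possible because each combination has 1 library; the cell types were instead paired by day and sex. edgeR was not run, and voom was the count model used on the recovered reads. Depth limits the scarce members: miR-127-5p and both arms of miR-136 are at 0 in E12.5 PGC, where 5 reads are 27.1 and 29.98 RPM.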
